A study of Drosophila melanogaster with 3 samples.

Results

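The regions described here are the distal intronic peaks of Su(H), the places inside Drosophila melanogaster genes, but far from any start of transcription, where the fusion protein Su(H)-GFP was found on chromatin. A peak was taken when its summit lay in an annotated gene, in no annotated exon, and more than 2000 bp from the nearest annotated start of any gene other than a transposon. Of the 3833 peaks that the authors kept as reproducible, 580 met this rule, or 15.1% (95% Wilson interval 14.0 to 16.3%). Promoter peaks, with a summit within 500 bp of a start, made up 2269 of the list. A further 497 were intronic peaks nearer to a start, 389 lay between genes and 98 in exons.

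The chromatin came from 1 transgenic line whose Su(H) carries GFP at its C-terminal end. Males and females were mixed, and the whole embryos were 0 to 24 h old. Chromatin sheared to 200 to 800 bp was pulled down and sequenced (ChIP-seq), with an antibody against GFP per the description of each sample, although the antibody label names Su(H). The 3 libraries are labelled as biological replicates, all of 1 group, and no condition was contrasted with another. Whole embryos of all stages mix many cell types, and a peak does not tell in which of them the protein was bound.

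In the Notch pathway Su(H) (Suppressor of Hairless) is the protein that contacts DNA. On its own it recruits corepressors, and when the receptor Notch is cleaved, the intracellular part of Notch joins Su(H) and Mastermind and turns target genes on. Many enhancers, the distant elements that set where and when a gene is active, lie in long introns of developmental genes, among them enhancers that answer to Notch.

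Words at the distal intronic peaks are shown first: those of the first and second set were more frequent at these summits than beside them, and the third is the site that Su(H) is known to bind. Each copy below lies within 100 bp of the summit of a member and is read 5′ to 3′ on the strand given, in dm6, with 12 bases to each side. The first set holds the word CACTGAG, in capitals, and gives 5 of the 53 members with it.
kirre, chrX:3097114-3097144, plus strand: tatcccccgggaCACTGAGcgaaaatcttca
pnt, chr3R:23326400-23326430, plus strand: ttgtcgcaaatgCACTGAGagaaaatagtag
ush, chr2L:520737-520767, plus strand: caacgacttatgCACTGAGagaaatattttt
aop, chr2L:2163717-2163747, minus strand: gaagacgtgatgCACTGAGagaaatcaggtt
hth, chr3R:10564355-10564385, plus strand: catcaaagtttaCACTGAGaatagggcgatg
The second set holds the word CACAGTG, in capitals, which was in 65 members.
Pits, chrX:12579578-12579608, plus strand: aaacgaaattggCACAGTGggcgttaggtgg
Gug, chr3L:8458231-8458261, minus strand: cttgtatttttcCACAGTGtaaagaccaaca
CHES-1-like, chrX:7700454-7700484, minus strand: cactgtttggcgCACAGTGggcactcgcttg
The third set holds the Su(H) site, in capitals, in the 3 strongest members that have one and in Delta, the gene of a ligand of Notch.
dpp, chr2L:2433560-2433591, plus strand: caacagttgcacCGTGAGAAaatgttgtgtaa
trio, chr3L:1031430-1031461, plus strand: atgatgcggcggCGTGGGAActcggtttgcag
jumu, chr3R:10352429-10352460, minus strand: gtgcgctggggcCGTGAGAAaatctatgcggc
Delta, chr3R:19321831-19321862, minus strand: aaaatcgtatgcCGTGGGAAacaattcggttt

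The words of the first and second sets were found by a search over all 7-letter words at the 580 summits. Windows reaching 100 bp to the left and right of each summit were set against windows of equal size centred 1000 bp to both sides. Of 8192 words, a word and its reverse complement counted as 1, 40 (0.488%) differed in their share of windows at an adjusted p under 0.05 (Fisher's exact test, Benjamini-Hochberg adjustment over all words). Of these, 37 (0.452%) were more frequent at the summits and 3 less. With flanks centred 2000 bp away the split was 75 and 15, and over words of 6 letters 93 and 54. Of the 37, 15 held CACTG or its reverse complement CAGTG, as did 48 of all words. Neighbouring windows are not independent, and the words overlap each other.

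CACTGAG was at 53 of 580 members, 9.14% (95% Wilson interval 7.05 to 11.8%), and at 1.38% of flanks (Fisher's exact test, adjusted p = 2.17e-10). Over all distal intronic sequence of the genome, cut into 188826 windows of that size, 1.88% held it. CAGTGCA was at 12.6% of members and 2.93% of flanks (Fisher's exact test, adjusted p = 2.17e-10). For CAGTGTA the shares were 10.5% and 2.07%, with an adjusted p of 3.80e-10 by Fisher's exact test. For CACAGTG they were 11.2% and 2.93%, with an adjusted p of 2.16e-08 by Fisher's exact test. Reaching 50 bp from the summit instead of 100, none of these 4 words passed. CACTGAG was then at 2.76% of members and 0.776% of flanks, with an adjusted p of 0.338 by Fisher's exact test. The 5 letters CACTG alone were in 322 members, 55.5%, against 27.7% of flanks. They were nearly as frequent in the other classes of peaks, at 53.7% of near intronic, 52.7% of intergenic and 47.9% of promoter summits. The shares with 2 or more copies were 18.4% in members, 16.1% in near intronic, 18.5% in intergenic and 14.1% in promoter peaks.

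CACTGAG was often followed by the same letters. Among the words of 10 letters that contain CACTGAG, the most frequent was CACTGAGAGA, in 25 members (4.31%) and in 0.431% of flanks. It was in 0.172% of distal intronic windows of the genome. Intergenic summits held it at 4.88%, near intronic summits at 2.01% and promoter summits at 0.573%. Members with CACTGAG lay on 5 chromosome arms. They were 4 of the 103 members on 3L, 12 of the 92 on 2R and 15 of the 150 on X. The window of 1 member overlapped an annotated mobile element, and none of the 53 with CACTGAG did, among 5659 such elements in the RefSeq annotation.

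These words had a place and a direction at distal intronic summits. Of the 57 copies of CACTGAG within 100 bp of a summit, 3 lay within 20 bp of it and 46 over 40 bp away. Their median distance was 68.0 bp, which the window caps, and copies of the same direction went on beyond it. With 200 bp to each side the share of members was 13.4%, and that of flanks 2.93%. Read 5′ to 3′, 56 copies pointed toward the summit and 1 away, so 98.2% pointed toward it (95% Wilson interval 90.7 to 99.7%). Copies on the left of the summit thus read left to right, and those on its right read right to left. Around the summits of the single replicates, 98.2%, 93.4% and 96.5% pointed toward the summit in replicates 1, 2 and 3. Those summits were matched within 200 bp of the same members, so these shares are not independent of the first. The search that found the words used neither position nor strand, but it used the same members.

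**Figure D1:**
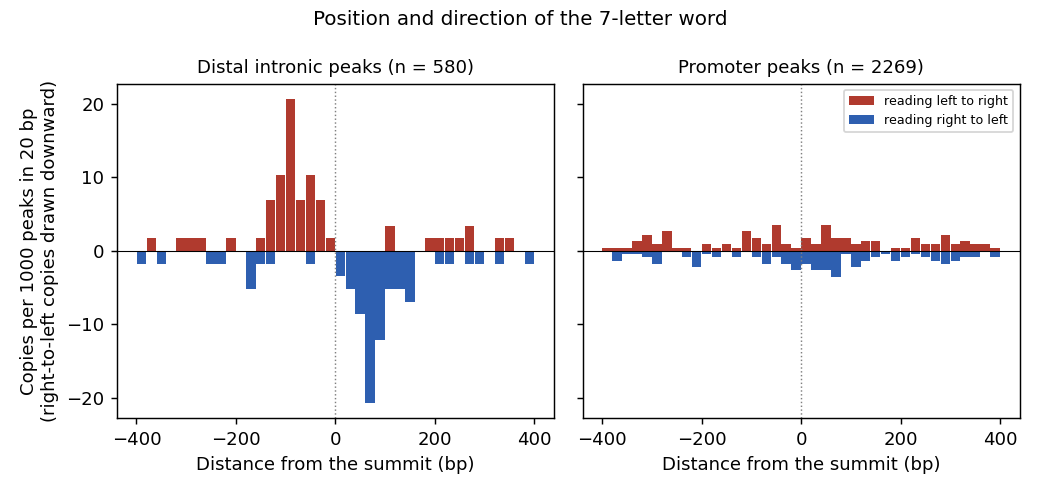
Copies of the 7-letter word CACTGAG per 1000 peaks, in steps of 20 bp up to 400 bp from the summit, for the 580 distal intronic peaks (left) and the 2269 promoter peaks (right). Copies reading left to right are drawn upward and copies reading right to left downward. In distal intronic peaks the 2 directions form separate mounds on opposite sides of the summit, and in promoter peaks they do not.

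The 15 words with the CACTG core fell into opposite directions. For 10 of them, read with CACTG forward, the 95% Wilson interval of the share pointing toward the summit lay above 50%, and for 5 it lay below 50%. TGCACTG pointed toward the summit in 70 copies and away in 12, TACACTG in 63 and 6, and GCACTGG in 24 and 1. In the 5 opposite words CACTG was followed by T or preceded by a second C. CACTGTG pointed toward the summit in 16 copies and away in 56, TCACTGT in 6 and 35, and CACTGTA in 10 and 44. Read on the other strand, as CACAGTG, most copies of this group thus also pointed inward. Direction was not limited to words with the core. Of all 37 words, the interval lay above 50% for 16 and below 50% for 14. For words without the core the strand read was arbitrary. GAAAAAA pointed toward the summit in 137 copies and away in 32, and AGAAAAA in 105 and 31. Among the 37 words, the median distance from the summit, within the same window, ran from 35.0 to 71.0 bp.

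Promoter summits held CACTGAG less often and in no prevailing direction. It was at 3.48% of them, below its share of members (Fisher's exact test over all 7-letter words, adjusted p = 3.96e-05), and 41 of its 80 directed copies there pointed toward the summit. CAGTGCA was at 4.89% of promoter summits (Fisher's exact test, adjusted p = 5.42e-07 for the difference from members). Flanks of promoter peaks held CACTGAG at 1.48% and CAGTGCA at 2.97%. CACAGTG was at 6.79% of promoter summits and 2.45% of their flanks. The differences between promoter summits and their flanks were not tested. Of all 8192 words, 123 (1.50%) differed between members and promoter peaks, 51 more frequent in members and 72 in promoter peaks. The word with the lowest p was ATCGATA, at 16.5% of promoter summits and 1.72% of members (Fisher's exact test, adjusted p = 1.20e-23). Of the 40 words that set members apart from their flanks, 21 were also more frequent in members than in promoter peaks at that threshold, and 0 were more frequent in promoter peaks. The 40 words were chosen on counts in the same member windows, so this split partly follows from the choice and is a description only. Runs such as GAAAAAA, at 24.0% of members, 14.0% of flanks and 13.1% of promoter summits, were among the 21. Members held less G and C than promoter peaks (37.6% of bases on average against 40.7%). They also held less than their flanks (40.1%) and distal intronic windows of the genome (40.5%). How far base content bears on the word counts was not tested.

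The same words were not limited to distal introns. At intergenic summits CACTGAG stood at 11.1%, and at intronic summits nearer to a start at 5.43%. There, 41 of 48 and 28 of 31 directed copies pointed toward the summit. Compared with their own flanks, 27 of the 40 words were more frequent at intergenic summits and 23 at near intronic summits (Fisher's exact test, adjusted over the 40 words).

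The Su(H) site itself was rare in distal intronic peaks. It was searched on both strands as CGTGAGAA or CGTGGGAA, or with T in place of the first C (TGTGAGAA and then TGTGGGAA), and was within 100 bp of 19 of 580 summits, 3.28% (95% Wilson interval 2.11 to 5.06%). Flanks stood at 2.93% (Fisher's exact test, adjusted p = 1.00) and promoter summits at 3.44% (Fisher's exact test, adjusted p = 1.00). Near intronic summits stood at 3.62%, intergenic summits at 5.14% and all thresholded peaks at 3.57%. Over distal intronic windows of the genome the share was 2.16%. The letters of the site in reverse order, a control, were at 1.38% of members and 1.64% of flanks.

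Of 22 known motifs compared with the flanks, 0 (0%) passed an adjusted p of 0.05 by Fisher's exact test. At an unadjusted p under 0.05 there was 1, the proneural E-box (GCAGCTGC or GCAGCTGG), at 0.517% of members and 2.07% of flanks. Against promoter summits 2 of 22 motifs (9.09%) passed, both lower in members. The DREF element TATCGATA, a site of housekeeping promoters, was at 0.517% of members and 8.81% of promoter summits (Fisher's exact test, adjusted p = 1.18e-15). Motif 1, GGTCACACT, a core promoter element bound by M1BP, was at 0.172% of members and 4.89% of promoter summits, with an adjusted p of 2.25e-09 by Fisher's exact test. At an unadjusted p under 0.05 there were 5. Members lie by rule over 2000 bp from a start and promoter summits within 500 bp, so this contrast cannot be separated from that rule. Flanks held the DREF element at 0.603% and Motif 1 at 0.0862%. In distal intronic windows of the genome the shares were 0.393% and 0.0980%.

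**Figure D2:**
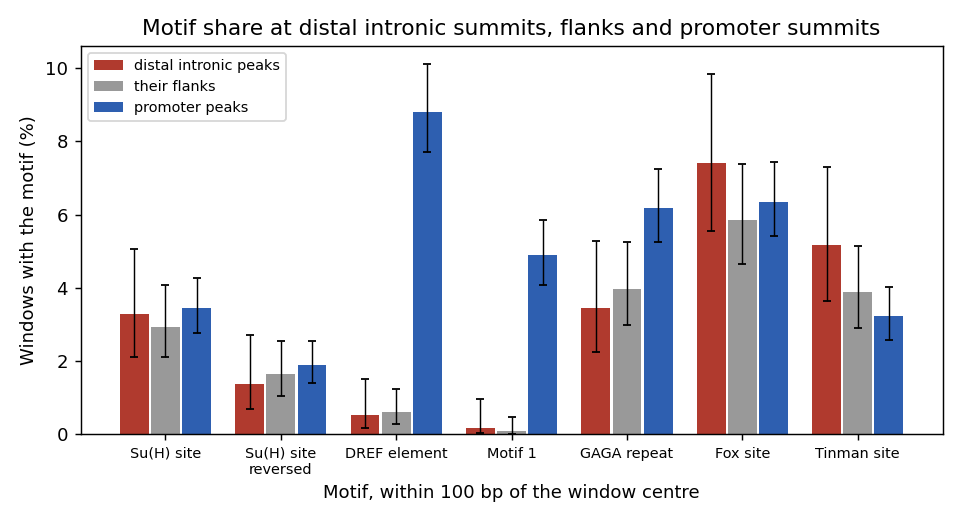
Share of windows with each of 7 motifs (percent, bars start at 0) in the 580 distal intronic peaks, their 1160 flanks and the 2269 promoter peaks; error bars are 95% Wilson intervals. The Su(H) site stood at 3.28%, 2.93% and 3.44%, and the DREF element and Motif 1 stood at 8.81% and 4.89% of promoter peaks.

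Of the 19 members with a Su(H) site, 2 were in genes of the Notch pathway list, Delta and numb. That list held 7 of all 580 members, and these counts were not tested. In an intron of dpp, which encodes a BMP ligand, the peak at 2L 2433536 to 2433737 had signal values of 103, 119 and 133 in replicates 1 to 3. In the first intron of Delta, at 3R 19321709 to 19322124, the values were 67.1, 53.1 and 71.9. In numb, whose product antagonises Notch in asymmetric division, they were 55.7, 75.6 and 53.8 (2L 9446524 to 9446939). All were below the 20 strongest members, and no replicate was the highest in every one of the 3 peaks. The sites lay 72 bp from the summit in dpp, on its left, 70 bp in Delta, on its left, and 56 bp in numb, on its right. The other members with a site were in trio, jumu, kirre, Klp98A, Zdhhc8, Pli, sbb, CG1677, Fer1, crp, cad, vn, Doa and CG6983, and 2 were in tara. Of the 100 strongest members 1 had a site (1.00%), of the next 200 it was 4.50%, and of the remaining 280 it was 3.21%. The log2 ratio of median signal with a site to that without was 0.07, -0.09 and -0.01 in replicates 1 to 3 (mean -0.01 ± 0.08 SD, n = 3; exact sign-flip permutation test, two-sided, p = 0.75; 3 replicates cannot go below 0.25).

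With CACTG the ratio was 0.24, 0.13 and 0.16 on the log2 scale, higher in 3 of 3 replicates (mean 0.18 ± 0.05 SD; exact sign-flip permutation test, two-sided, p = 0.25). The word was at 67.0% of the 100 strongest members, 58.0% of the next 200 and 49.6% of the remaining 280. CACAGTG went the same way, at 18.0%, 12.5% and 7.86%, and CACTGAG stood at 8.00% of the first and 9.64% of the last.

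Distal intronic peaks were a smaller part of the strongest peaks than of the longer lists. Among the 500 strongest peaks of each replicate list they made up between 8.40% and 11.2% (mean 10.2 ± 1.56% SD, n = 3). Among as many peaks as the thresholded list holds, 14.1%, 15.9% and 15.4% were distal intronic. Among all 30000 entries of each list the shares were 21.2%, 22.8% and 21.5%. The share was higher in the whole list than in the top 500 in 3 of 3 replicates. It remained below the 28.3% of the 6 main chromosomes that distal intronic sequence covers, 38.0 Mb. Promoter peaks went the other way, from 64.8 ± 3.12% of the top 500 to 31.5 ± 2.01% of the whole lists (mean and SD, n = 3). Exonic entries rose as well, from 2.07 ± 0.115% to 20.9 ± 3.93%. The pooled list of 30000 is labelled as peaks and background, so how many of the weaker entries are bound places is unknown.

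**Figure D3:**
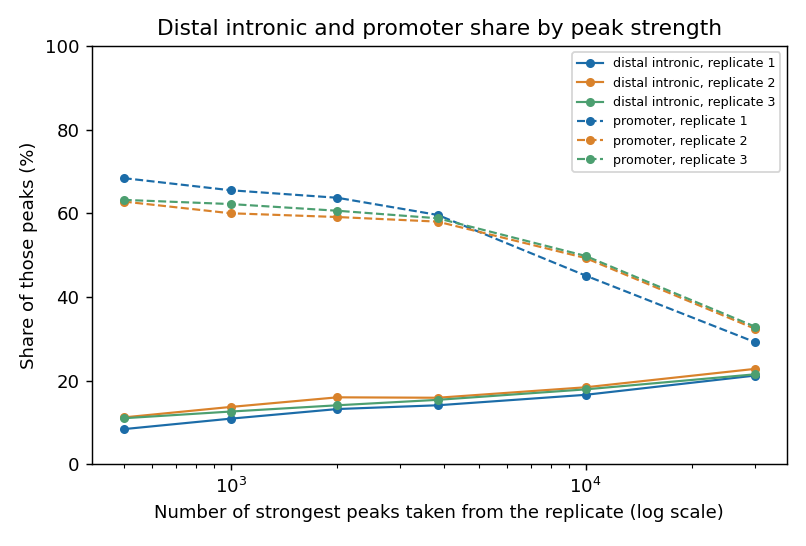
Share of peaks (percent) that were distal intronic (solid lines) or at promoters (dashed lines) among the strongest 500, 1000, 2000, 3833, 10000 and 30000 peaks of each replicate list (log scale). The distal intronic share climbs from between 8.40 and 11.2% to between 21.2 and 22.8% as weaker entries, which can include background, are added. The promoter share falls.

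Members that passed the authors' threshold were about as strong as promoter peaks that did. Their median signal was 51.3, 56.0 and 54.0 in replicates 1 to 3, and that of promoter peaks 57.9, 55.1 and 57.0. The log2 ratio was -0.17, 0.02 and -0.08 (mean -0.08 ± 0.10 SD, n = 3; exact sign-flip permutation test, two-sided, p = 0.5), so replicates did not share a direction. A replicate summit lay within 200 bp in all 3 replicates for 567 members (97.8%), beside 97.9% of all thresholded peaks. The thresholded list was made from these replicates, so this match is a description. The 13 members without a match in 1 replicate were unmatched in replicate 1 (11) or replicate 3 (2), and included peaks in Mef2, E2f1, sog, bun and psq. The coefficient of variation over replicates had a median of 19.3% and reached 86.9% at the second peak of Dad, an inhibitor of BMP signalling, where the values were 133, 18.7 and 51.5. Its value of 133 is that of the replicate 1 summit that also matched the stronger peak of Dad.

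The strongest member lay in Raf, the kinase that acts below Ras in receptor tyrosine kinase signalling, at X 2297560 to 2297887. Its signal values were 316, 311 and 410.0 in replicates 1 to 3 (346 ± 55.9 SD), and it ranked 40th of the pooled peaks. Tlk, the Tousled-like kinase gene, followed with 307, 360.4 and 252 (X 3742045 to 3742403). In CG32486 the values were 243, 265 and 287 (3L 3060644 to 3060956). Replicate 3 was the highest for Raf and the lowest for Tlk, and Tlk was above Raf in replicate 2.

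The fourth strongest member lay in an intron of N, the gene of the Notch receptor itself, at X 3162254 to 3162729, with values of 235, 246 and 208 (229.8 ± 19.5 SD). It was 27652 bp from the nearest start of N and 10618 bp from the nearest start of any gene, CG18508. A second summit 199 bp away was listed as a member of its own, with 48.5, 91.8 and 57.5. No copy of the Su(H) site lay within 100 bp of either.

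Below these, the 20 strongest members were in CG32264, Su(Tpl), an elongation factor gene, upSET and JIL-1, genes of chromatin proteins, Hr4, a nuclear receptor of the ecdysone response with 2 of them, Pits, Gug, a corepressor gene, aos, the secreted inhibitor of the EGF receptor, mnb, CG12769, CHES-1-like, a forkhead gene, ken, bves, fz, a Wnt receptor gene, and kirre, whose product joins founder cells to fusing myoblasts. The peak in aos had 159.9, 155 and 197, and the stronger of those in Hr4 had 149, 178 and 194. In fz, 22210 bp from any start, the values were 111, 177 and 192. Replicate 1 was the lowest for Hr4 and fz and lay between the others for aos. Su(Tpl), with a mean of 204 ± 23.0, was above upSET, the next, with 176 ± 31.6 (SD, n = 3), in 3 of 3 replicates. From upSET down to kirre the means lay between 157 and 176, and neighbours in that order differed by less than their SD.

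**Figure D4:**
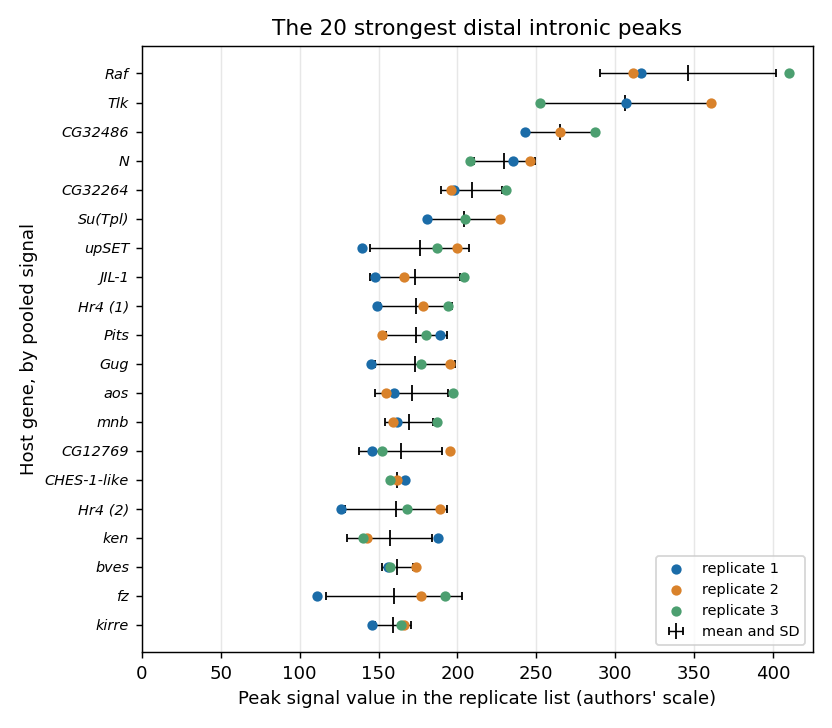
Signal value (the authors' scale) of the 20 strongest distal intronic peaks in each of 3 replicates, with mean and SD, ordered by pooled signal and named by host gene. Raf and Tlk have means of 346 and 306, and members 5 to 20 have means between 157 and 209.

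At the limit of the rule, the 2 members nearest to a start lay 2006 bp from one in lncRNA:CR44320 and 2019 bp in CG3764, with pooled signal of 266 and 378. The 2 intronic peaks just outside it lay at 1994 bp in mwh and 1995 bp in Paip2, with 127 and 112.

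The median distance of a member from the nearest start was 4902 bp, and 286 (49.3%) lay over 5000 bp away. The farthest was in hth, a homeobox gene, at 49823 bp, and it carried the copy of CACTGAG shown above. Density fell with distance, from 24.4 members per Mb of distal intronic sequence between 2000 and 3000 bp to 3.92 per Mb over 20000 bp. First introns held 353 members (60.9%) and 37.8% of distal intronic bases, and first introns lie nearest to starts. For 188 members (32.4%) the nearest start was that of a gene other than the host. X had 20.4 members per Mb, and 2L 17.0, against 12.7 on 3R and 0 on the fourth chromosome. In the strongest 3833 peaks of each replicate X stood at 17.2, 19.8 and 19.5 per Mb and 2L at 16.3, 18.5 and 18.2, so X was above 2L in 3 of 3 replicates (18.9 ± 1.42 and 17.7 ± 1.17, SD, n = 3), a difference that was not tested. On 3R the values were 12.7, 13.8 and 12.7, below both in every replicate.

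The 580 members lay in 368 host genes, of which 245 held 1, 123 held 2 or more and 53 held 3 or more. The 9 hosts with 5 or more held 56 members. Raf, kirre, sbb and tara each held 7. Hr4, ush and ftz-f1 held 6, and rdx and Eip75B 5. In Raf, a gene of 48.4 kb, 6 of the 7 lay at 2273 to 11033 bp from the gene's start, with replicate means from 50.9 to 346. In kirre, a gene of 394 kb, they were spread from 121 to 357 kb. Hr4, ftz-f1 and Eip75B are all nuclear receptors of the ecdysone response, the steroid programme of moults, ush is a GATA cofactor, and rdx encodes an adaptor that targets Ci for degradation. Another member lay within 5000 bp of 180 members (31.0%).

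**Figure D5:**
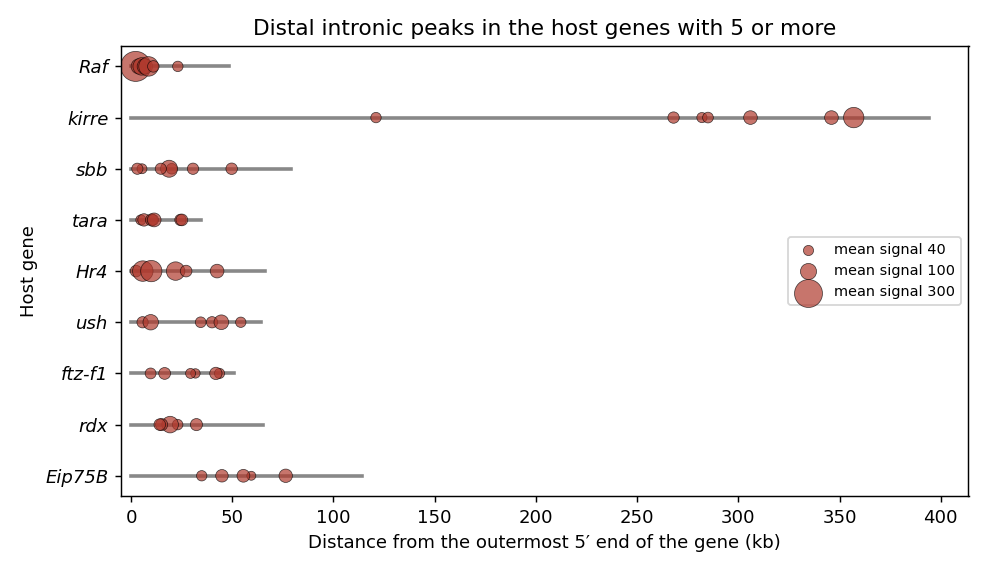
Position of distal intronic peaks in the 9 host genes with 5 or more, as distance in kb from the outermost 5′ end of the gene (grey line, full length of the gene); circle area follows the mean signal over 3 replicates. In Raf 6 of 7 crowd near the 5′ end, and in kirre they lie from 121 kb onward.

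Of 4202 protein-coding genes with any distal intronic sequence, 373 held a member (8.88%). Genes with more such sequence could hold more: the median was 16.0 kb in genes with a member and 1.44 kb in all. Of the 1051 genes with over 7.95 kb of it, 25.6% held a member. A promoter peak was also present in 48.7% of those, beside 19.1% of the 782 such genes with no member. Over all 4202 genes the shares were 47.5% of 373 and 24.9% of 3829. Genes with over 7.95 kb of distal intronic sequence held 14.2 members per Mb of it, and those with 1.44 to 7.95 kb held 27.2 per Mb.

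Genes of the EGF receptor and FGF pathways held members most often among the lists compared: 8 of 15 with distal intronic sequence (53.3%), with 20 peaks or 81.2 per Mb, beside 15.4 per Mb over all protein-coding genes. They were Raf, aos, S, vn, pnt, aop, edl and ths. Raf alone held 7 of the 20 peaks, in 16.0 of the 246 kb of distal intronic sequence of this list. S, or Star, which moves the ligand Spitz to where it is cut, had 101, 155 and 122 in its strongest peak, and vn, a ligand gene, 101, 91.4 and 122. pnt and aop encode the activating and the repressing ETS factor of the pathway, and their strongest peaks had means of 88.1 ± 14.7 and 80.5 ± 9.01 (SD, n = 3). No replicate was the highest or the lowest in all of these peaks.

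In the BMP pathway 4 of 10 genes held a member (96.5 per Mb): Dad, dpp, shn, a zinc-finger cofactor, and sog, an extracellular antagonist. The strongest were in Dad, with 133, 131 and 112, and dpp. Among genes of the ecdysone response it was 5 of 11 (45.5%; 56.4 per Mb), namely Hr4, Hr3, Eip75B, ftz-f1 and EcR. Hr3 had 153, 129 and 157 in its strongest peak. In the Wnt pathway 5 of 14 (35.7%, 29.0 per Mb) held one, fz, nkd, arr, Wnt4 and fz2. In the Hippo pathway it was 3 of 9 (37.2 per Mb), ex, kibra and wts. The BMP and Hippo lists had medians of 7.43 and 6.53 kb of distal intronic sequence. All protein-coding genes with 1.44 to 7.95 kb of it held 27.2 per Mb.

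Genes of the Notch pathway did not lead this order: 4 of 17 (23.5%; 32.0 per Mb) held a member, N, mam, Delta and numb. The median of this list was 6.67 kb of distal intronic sequence, and all protein-coding genes with 1.44 to 7.95 kb held 27.2 per Mb. The strongest in mam, the gene of the coactivator Mastermind, had 84.4, 99.4 and 64.0. Of known Notch targets outside the E(spl) complex, 5 of 12 (41.7%, 37.0 per Mb) held one, aos, Myc, edl, ct and E2f1. The peak in Myc had 96.1, 70.5 and 87.8. No member lay in Su(H) itself.

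Mesoderm and muscle regulators had 5 of 13 (38.5%; kirre, Mef2, how, nau and mbc), at 28.6 per Mb. Axon guidance and cell adhesion genes had 9 of 30 (30.0%), at 14.8 per Mb close to all genes. Among these were sli, the ligand of Robo, at 71.9, 99.5 and 91.7, and Fas3 at 85.2, 72.4 and 102. RNA-binding proteins and splicing regulators had 7 of 16 (43.8%; shep, Rbfox1, how, mbl, msi, pum and bru2), at 6.35 per Mb and with a median of 72.3 kb of distal intronic sequence. Neuroblast and CNS regulators had 4 of 13 (30.8%; brat, grh, jing and chinmo), at 15.0 per Mb also close to all genes, and chromatin regulators 5 of 19 (26.3%; trx, Psc, psq, ph-p and jing), at 37.2 per Mb. Single genes held members among the Hox genes (Antp, 1 of 8, 12.7 per Mb) and hemocyte genes (ush, 1 of 9, 66.0 per Mb). The 6 peaks of the hemocyte list were all in ush. The JAK-STAT pathway had 1 of 7 (Ptp61F, 21.8 per Mb) and the insulin and TOR pathways 1 of 10 (InR, 18.2 per Mb). The cell cycle had 1 of 7 (E2f1, 26.6 per Mb), and the trachea list 2 of 9 (rib and pnt, 16.0 per Mb).

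Some lists with distal intronic sequence held none. None of 20 genes for neuronal channels and the synapse, with 486 kb of such sequence, held a member, nor did any of 11 sarcomere genes, 8 glial genes, 6 genes of the Hedgehog pathway or 13 chemoreceptor genes. The last 4 lists had little such sequence, 100.2, 9.88, 33.5 and 42.9 kb in that order. No gene for a cytoplasmic ribosomal protein had distal intronic sequence. All these lists hold few genes, some genes stand in more than 1 list, and the counts carry no test.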

How the data were processed

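The deposited dm6 peak lists were used, 1 for each of 3 replicates and 1 for the pooled reads, of 30000 entries each, and a thresholded list made from them. The pooled list is labelled as peaks and background. The signal of a peak is a deposited value, read by its position in the narrowPeak format. Its scaling is not stated, and it served only to rank and describe peaks. The lists hold no counts, so read depth is unknown. Per the file lists, peaks were called against a control, which was not analysed here. For the aligner, the peak caller and the threshold, the sources used here give nothing. The dm3 lists were not used here.

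The summit was the deposited offset added to the start. Genes came from Ensembl release 115 (BDGP 6.54), and sequence and mobile elements from RefSeq for the same assembly. A replicate value is that of the nearest replicate summit within 200 bp, and neighbouring members can share one. Fisher's exact tests were two-sided, with Benjamini-Hochberg adjustment over 22 motifs or all words. Wilson intervals (95%) cover counting error only. Exact sign-flip permutation tests ran over the 3 replicates. Scripts used Python 3.11.15, numpy 2.4.6, pandas 2.3.3 and scipy 1.17.1, and the tests were tried on simulated data.

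Named genes were the hosts of the 20 strongest members, the 10 hosts with most members, up to 4 genes of each of 25 lists (1 list is not reported here), the hosts of the 10 strongest members with a Su(H) site, N and Su(H), and 2 peaks on each side of the limit. Other genes (further genes of a list, the remaining hosts with a site, hth, pnt and aop, unmatched members) were named after their values were seen. The host is the gene whose span holds the summit, or, of several, the protein-coding one whose start is nearest; list counts take every gene that holds the summit. The members and lists were chosen with earlier results of these data known. The words shown, their direction and the 10-letter word were chosen after the word search.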

Additional observations from a re-analysis of the deposited data

How the results depend on the processing

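Of 47 alternative values for whole comparisons, 32 were counted as unchanged and 15 as moved. Counts and percentages were held to 1.5 times or 1 interval of the value reported, and the replicate shares to their SD. Signal ratios against promoter peaks were held only to their sign. They kept it, between -0.13 and -0.03 beside the -0.08 reported, which is not within 1.5 times. Of 57 alternative values for single motifs and words, 45 kept direction and call, 6 lost the call and 6 changed sign, none of them called. Of these, the Su(H) site against promoter summits went from -0.162 percentage points to 0.438 at 50 bp and 0.169 at 200 bp to each side. Against flanks it went from 0.345 to -1.22 over 5000 bp from a start and -0.752 among the 1000 strongest. The DREF element against flanks went from -0.0862 to 0.431 with flanks 2000 bp away, and Motif 1 from 0.0862 to -0.376 among the 1000 strongest. A limit of 5000 bp left 286 members. With the limit of 2000 bp kept, the 1000 strongest peaks held 133 members in 121 host genes. All 3 replicates matched 90.5% of members within 100 bp and 99.1% within 400 bp. Leaving out 1 replicate gave 97.8 to 99.7%, and a distal intronic share of 14.7 to 15.6%. Against promoter summits 5 motifs passed at 200 bp to each side and 1 among the 1000 strongest, where Motif 1 did not (Fisher's exact test, adjusted p = 0.505). Against flanks centred 2000 bp away 1 motif passed, the proneural E-box. Words that passed numbered 1 at 50 bp to each side, 21 over 5000 bp from a start, 3 among the 1000 strongest peaks, 90 with flanks 2000 bp away (75 higher) and 147 at 6 letters (93 higher). At 50 bp all 4 words given with values in the report lost the call. Among the 1000 strongest CACTGAG lost it, at 8.27% of members and 2.63% of flanks. With summits within 500 bp joined, 100% of CACTGAG copies pointed toward the summit. The cause of these moves was not tested. Fits over 5000 bp or the strongest peaks hold fewer members. The word search over these subsets, the 200 bp windows and the joined summits, and the directions, were chosen after seeing the data. Ratios between classes of peaks were taken within each replicate, and with 1 group no replicate block between groups could be fitted. Depth is unknown and limits every count in an unknown degree.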
